A study of Mus musculus with 24 samples.

Results

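Collagens are the structural proteins of skin and bone, and 44 of the 55471 genes in the deposited tables are protein-coding collagen genes, chosen by symbol alone (Col, a number, a, a number). This rule of membership used no measured value, while collagens were picked for description with earlier results of these data known. By the structure their chains build, 11 are fibrillar, 9 are fibril-associated (FACIT), 6 belong to the type IV network of basement membranes, 6 to the beaded filaments of type VI, 4 are transmembrane, 3 form short-chain networks, 2 are multiplexins, 1 (Col7a1) forms anchoring fibrils and 2 fit none of these.

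The tissues came from a series on F-PRT and S-PRT in a mouse model of sarcoma. PRT is read here as proton radiotherapy, given at an ultra-high (FLASH) rate in F-PRT and at the standard rate in S-PRT, which the labels do not spell out. Skin and bone of female mice aged 10 weeks were collected after F-PRT, after S-PRT or from Untreated animals, which makes 6 groups of 4 libraries that the labels call biological replicates. The labels used here give no strain, dose, irradiated site, collection time or bone, and do not say whether a skin and a bone library of the same number came from 1 mouse.

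A collagen is a trimer of chains wound into a triple helix. Types I, III and V assemble into the fibrils of dermis and bone, types II, IX and XI into those of cartilage, and type X marks the cartilage that is about to be replaced by bone. Type IV forms the sheet under epithelia and around vessels, type VII anchors the epidermal sheet to the dermis, and Col17a1 spans the membrane of basal keratinocytes.

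RNA abundance was measured by sequencing of poly(A)-selected RNA, with 16418026 to 22088370 expected counts in a skin library and 10909700 to 17361478 in a bone library. Basal and differentiating keratinocyte markers were high in skin (summed levels of at least 7462 and 6669 CPM in every library, where CPM are counts scaled to a library of 1000000), and osteoblast and osteocyte markers were high in bone (at least 1180), so both tissue labels fit their markers. Several libraries stand apart from their groups. Skin S-PRT replicate 4 had a fibroblast marker sum of 155.5 CPM and an endothelial sum of 8.08, against 1387 to 1953 and 188 to 203 in the other 3 skin S-PRT libraries, and a basal keratinocyte sum of 28711. Skin S-PRT replicate 1 had a skeletal muscle sum of 12581 (347 to 2340 in the other 3). Skin Untreated replicate 1 had the highest fibroblast (1305) and basal keratinocyte (13950) sums of its group. Bone Untreated replicate 1 had the highest chondrocyte (1201, the others from 419) and fibroblast (1067, the others up to 786) sums of its group. It had the lowest granulocyte and red cell sum of its group (6253, the others from 11066.5) and the fewest expected counts of any library. Its protein-coding share of counts was the lowest of its group (75.0%, the others from 82.2%). Bone F-PRT replicate 3 had the lowest chondrocyte sum of its group (482) with a muscle sum of 8004, and bone F-PRT replicate 2 a differentiating keratinocyte sum of 153. Counts of collagens called against Untreated are given with and without these libraries, as are some of the single values.

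The promoters of 3 genes are shown because their genes carry the contrasts below: Col8a1 had the steepest rise in irradiated bone, and Col3a1 and Col7a1 moved in opposite directions in skin S-PRT replicate 4. Each is the 250 bases before the gene's annotated start, from RefSeq on GRCm38.p6, read 5′ to 3′ on the gene's strand. Capitals mark the TATA box (TATAAA), the CCAAT box (CCAAT or its complement ATTGG) and the GC box (GGGCGG or its complement CCGCCC). Col8a1 lies at chr16:57754738-57754987 on the minus strand, Col3a1 at chr1:45311288-45311537 and Col7a1 at chr9:108953336-108953585, both on the plus strand. None of the 3 windows overlaps an annotated exon.
Col8a1: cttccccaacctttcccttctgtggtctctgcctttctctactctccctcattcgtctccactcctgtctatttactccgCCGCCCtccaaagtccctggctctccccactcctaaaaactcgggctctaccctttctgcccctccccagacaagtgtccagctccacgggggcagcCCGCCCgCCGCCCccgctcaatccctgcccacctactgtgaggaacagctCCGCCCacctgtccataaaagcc
Col3a1: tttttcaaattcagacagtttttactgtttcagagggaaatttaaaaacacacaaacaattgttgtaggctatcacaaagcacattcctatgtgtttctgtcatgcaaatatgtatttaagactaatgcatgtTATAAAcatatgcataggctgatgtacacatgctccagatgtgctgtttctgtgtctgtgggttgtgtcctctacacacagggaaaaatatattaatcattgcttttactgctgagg
Col7a1: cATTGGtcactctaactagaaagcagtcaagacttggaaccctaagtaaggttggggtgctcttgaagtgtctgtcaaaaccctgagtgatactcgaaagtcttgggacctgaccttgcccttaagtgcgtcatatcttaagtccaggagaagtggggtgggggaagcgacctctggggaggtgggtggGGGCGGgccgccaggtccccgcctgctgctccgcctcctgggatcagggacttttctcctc

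The Col8a1 window holds 4 GC boxes and 60.8% G and C. The Col3a1 window holds 1 TATA box and no CCAAT or GC box, at 35.2% G and C. The Col7a1 window holds 1 CCAAT box and 1 GC box, at 56.4%. Of the 44 collagens, 35 had an entry in this promoter table. A collagen was counted for a motif if any of its windows held it (38 windows for the 35), while all promoters were counted window by window. A GC box was found, on either strand, in 21 of these 35 (60%) and in 32.7% of all 32851 promoters. A CCAAT box was found in 13 (37.1%, all promoters 33.8%), a TATA box in 5 (14.3%, all 12.4%) and the AP-1 motif TGAGTCA in 1 (2.86%, all 4.46%). These are matches of letters and say nothing of binding.

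In Untreated bone the collagen transcripts were dominated by type I. Levels of different genes are compared here only as TPM, a share of all transcripts in parts per 1000000 that corrects for length. Col1a1, the main chain of bone collagen, stood at 1411 ± 186 TPM (SD, n = 4) and Col1a2, its partner chain, at 755 ± 102. Both ranges lay apart from each other and from every other collagen. Col3a1 (67.3 ± 26.2), the cartilage collagen Col2a1 (60.7 ± 30.0), its minor fibril partner Col11a1 (56.4 ± 12.3) and the type I partner Col5a2 (37.8 ± 6.41) followed, with ranges that overlapped between neighbours. Fibrillar chains made up 92.9% to 93.9% of collagen TPM in the 3 bone groups (group means).

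Untreated skin had a different order. Col17a1, the transmembrane collagen of hemidesmosomes, stood at 170 ± 72 TPM, Col3a1 at 151 ± 81, Col1a1 at 53.3 ± 34.1, Col1a2 at 38.8 ± 25.6 and Col6a1 at 18.3 ± 8.83. The ranges of neighbours in this order overlapped, since the dermal chains varied widely between the 4 Untreated skin libraries. In skin F-PRT, where they varied less, Col3a1, Col17a1, Col1a1 and Col1a2 followed each other without overlap. At least 1 TPM in all 4 libraries was reached by 23 collagens in Untreated skin and by 26 in Untreated bone.

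**Figure D1:**
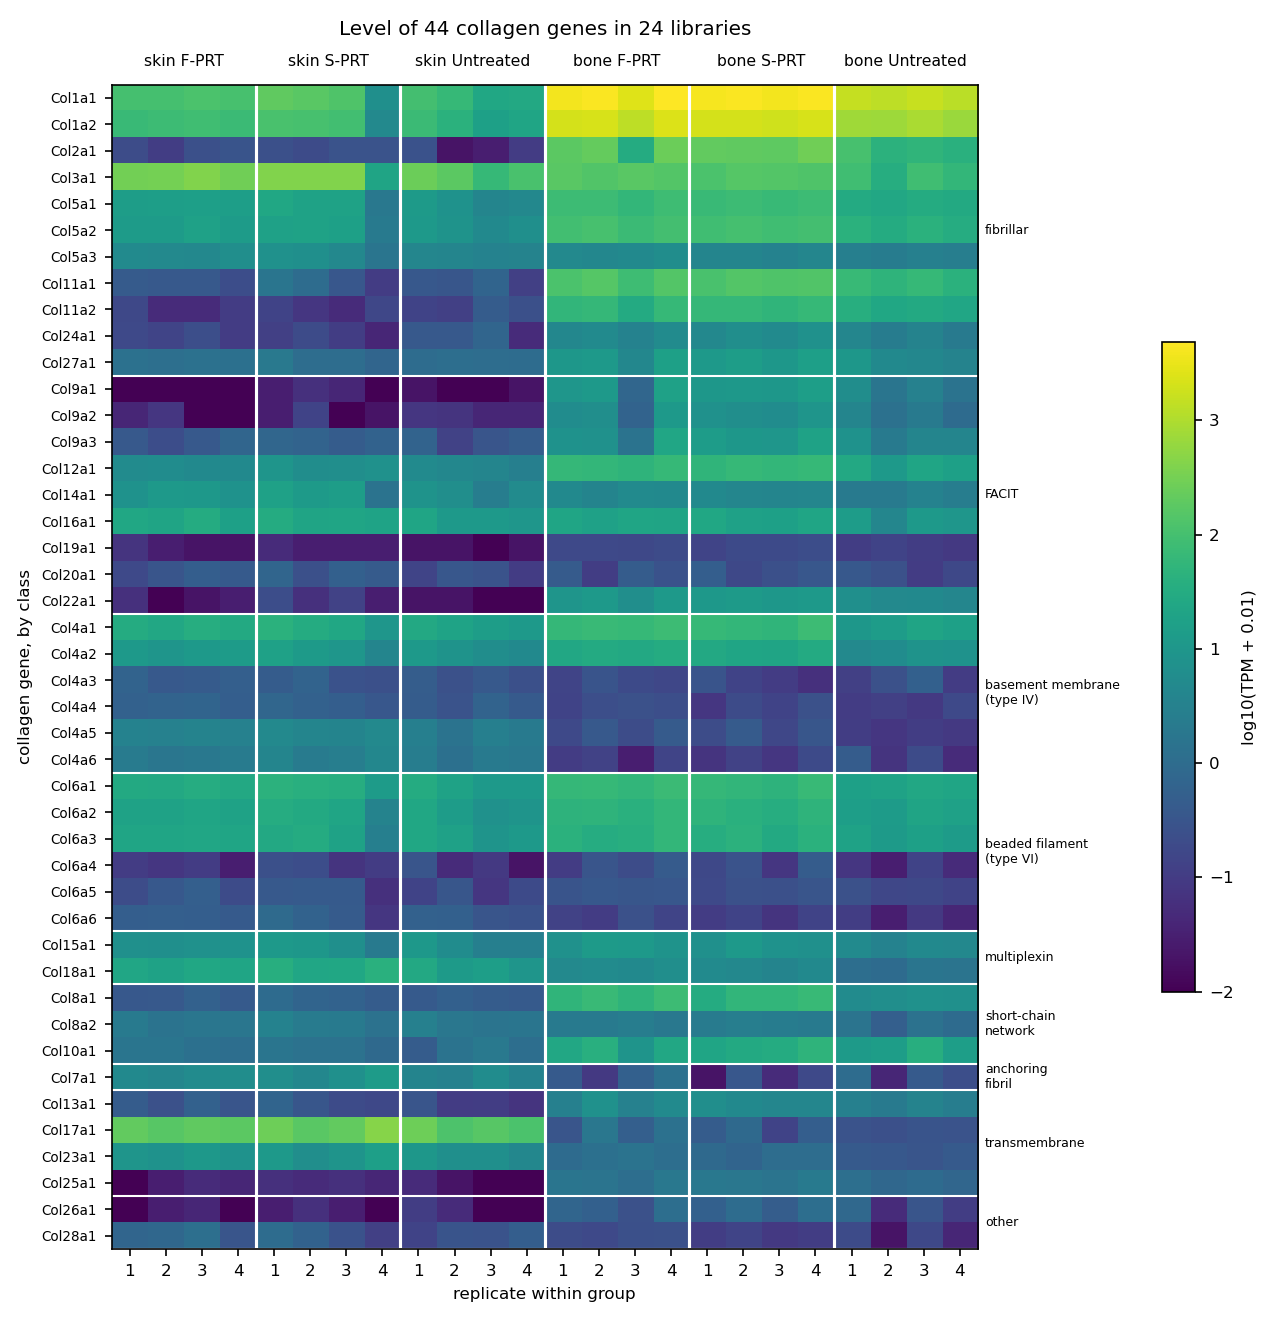
The heat map shows log10(TPM + 0.01) of the 44 collagens (rows, by class) in the 24 libraries (columns, by group), with brighter cells for higher levels. Type I chains are brightest in bone, Col17a1 and Col3a1 are brightest in most skin libraries, and skin S-PRT replicate 4 is dark in its fibrillar rows.

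Between the Untreated tissues, 12 of the 44 collagens were higher in skin and 20 higher in bone by edgeR's quasi-likelihood test (adjusted p under 0.05), at a background of 32.6% of all genes in each direction. The collagens of the epidermal junction led the skin side. Col17a1 had 1489 CPM in skin and 1.36 in bone, a log2 difference of 10.12 ± 0.72 (SE), and Col7a1 had 34.1 and 0.742 (log2 5.57 ± 0.49). The basement membrane chains Col4a5 (log2 4.89) and Col4a6 (4.51), the transmembrane Col23a1 (4.26) and the multiplexin Col18a1 (3.66) were also higher in skin, as were Col6a6, Col4a4, Col4a3, Col28a1, Col14a1 and Col8a2, by log2 0.99 to 2.81. The Col28a1 call (edgeR adjusted p = 0.024) was lost in 3 of 24 omissions of a single library, at adjusted p of up to 0.085.

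The cartilage and bone fibril genes led the other side. Col2a1 was lower in skin by a log2 difference of -11.19 ± 0.73, Col22a1 by -10.13, Col9a1 by -9.02, Col11a2 by -8.95 and Col11a1 by -7.10. Col1a1 differed by -4.78 ± 0.59 and Col1a2 by -4.33 ± 0.57. Col8a1, a short-chain network collagen of vessel walls and eye, had 3.14 CPM in skin and 51.2 in bone (log2 -4.02 ± 0.21). The other 12 on the bone side ran from Col5a1 (-1.65) to Col25a1 (-6.35). Between them lay Col12a1 (-2.14), Col5a2 (-2.31), Col27a1 (-2.55), Col19a1 (-3.47) and Col26a1 (-3.55). Further out were Col10a1 (-3.80), Col9a3 (-4.03), Col24a1 (-4.60), Col13a1 (-4.74) and Col9a2 (-5.47). Col3a1 (log2 1.05, adjusted p = 0.063), Col4a1 (0.34), Col4a2 (0.27), Col6a1 (-0.16) and Col15a1 (0.61) were among the 12 that did not pass.

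All collagens that passed the test in irradiated bone rose, after either beam. After F-PRT 14 of the 43 collagens tested rose and 0 fell, while 15.5% of all 18848 genes rose and 17.2% fell. After S-PRT 13 rose and 0 fell, against 13.3% and 15.2% of all genes. The median log2 difference of the collagens tested was 0.56 after F-PRT and 0.54 after S-PRT, and that of all genes tested was -0.01 in both. Every F-PRT and S-PRT value is set against the same 4 Untreated libraries, so the 2 comparisons are not independent. In whole tissue, more RNA per cell and more cells of a type cannot be told apart. Col28a1 was too low in bone to be tested.

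The steepest rise was that of Col8a1. Its level in the 4 Untreated bone libraries was 57.3, 51.0, 52.8 and 52.4 CPM. It was 263, 373, 236 and 364 CPM after F-PRT, and 166, 287, 298 and 338 after S-PRT. Every irradiated library lay far above every Untreated library, and the 2 irradiated groups overlapped. The rise was 5.79-fold after F-PRT (log2 2.53 ± 0.21, adjusted p = 2.1e-06) and 5.10-fold after S-PRT (2.35 ± 0.21, adjusted p = 4.0e-06). With each library left out in turn the log2 difference stayed between 2.43 and 2.65 after F-PRT and between 2.23 and 2.53 after S-PRT.

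The basement membrane pair rose next. Col4a1, a chain of the common type IV network, was at 111, 101, 119 and 103 CPM in Untreated bone, 271, 328, 265 and 324 after F-PRT, and 284, 252, 246 and 331 after S-PRT. Its partner chain Col4a2 was at 64.9, 61.8, 74.8 and 76.1 CPM, then 168, 204, 164 and 191, and 186, 153, 146 and 198. No irradiated library overlapped an Untreated library for either gene. Col4a1 rose 2.75-fold after F-PRT (log2 1.46 ± 0.12, adjusted p = 2.0e-06) and 2.57-fold after S-PRT (1.36 ± 0.12). Col4a2 rose 2.62-fold (1.39 ± 0.12, adjusted p = 3.4e-06) and 2.46-fold (1.30 ± 0.12). These 2 genes lie head to head on chromosome 8 and overlap by 22 bases on opposite strands, and how strand was counted is not given in the sources used here, so reads in that overlap are uncertain. The other 4 type IV chains, which occur in more restricted membranes, did not pass in either comparison. Of them Col4a5 had log2 differences of 1.02 (adjusted p = 0.089) and 1.09 (0.075).

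Col18a1, a vascular and epithelial basement membrane multiplexin whose end fragment is endostatin, was at 12.3, 7.39, 11.5 and 10.4 CPM in Untreated bone. It was at 25.5, 31.4, 24.8 and 30.6 after F-PRT and at 25.6, 24.5, 20.4 and 26.1 after S-PRT. Again no irradiated library overlapped an Untreated one. It rose 2.71-fold after F-PRT (log2 1.44 ± 0.15, adjusted p = 1.4e-05) and 2.33-fold after S-PRT (1.22 ± 0.15, adjusted p = 6.0e-05). The second multiplexin, Col15a1, rose 1.48-fold (adjusted p = 0.0034), from 19.97 to 29.6 CPM in Untreated bone to 33.3 to 35.8 after F-PRT. After S-PRT it rose 1.37-fold (adjusted p = 0.014), to 27.0 to 35.9, which overlaps the Untreated range. Endothelial markers were also higher, with a summed level of 525 to 620 CPM after F-PRT and 429 to 615 after S-PRT against 288 to 357, and all 8 were detected. Their part in these rises was not tested.

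**Figure D2:**
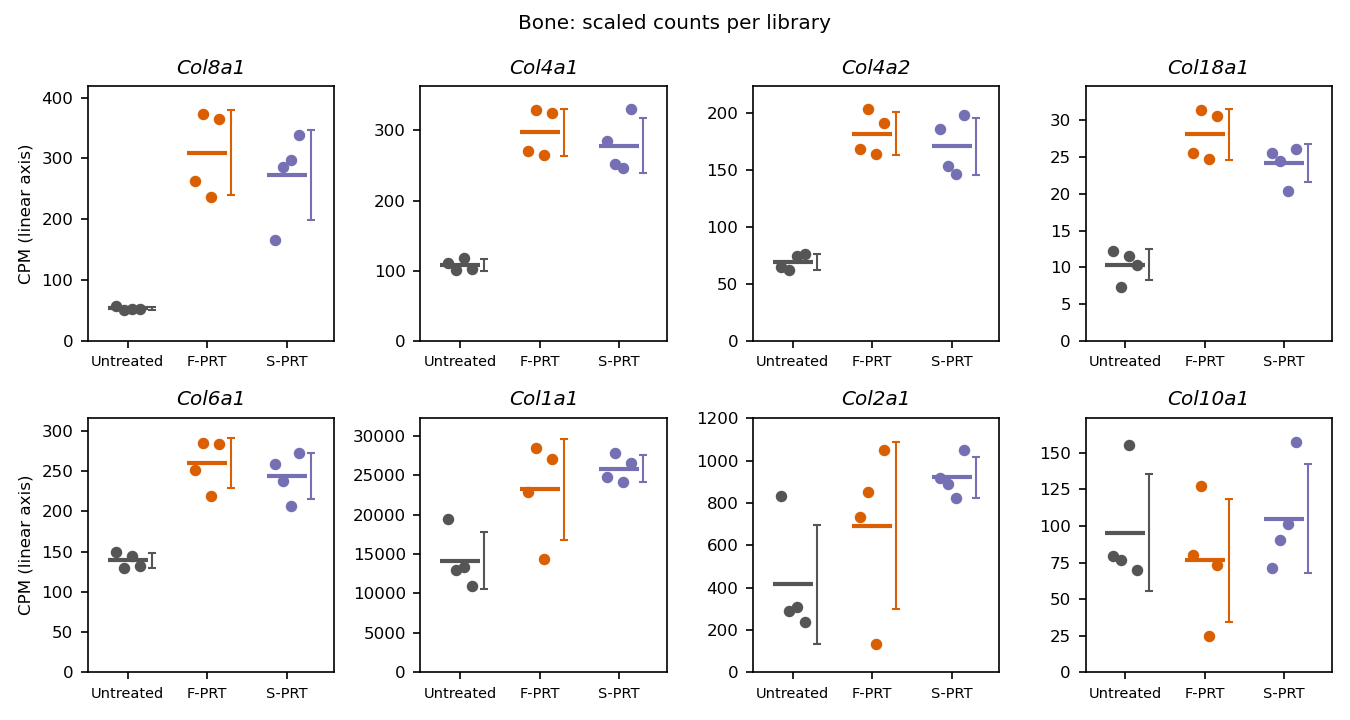
Points give CPM in each bone library on a linear axis from 0 for 8 collagens, with the group mean (line) and SD (bar). Irradiated points lie above all Untreated points for Col8a1, Col4a1, Col4a2, Col18a1 and Col6a1, and overlap them for Col2a1 and Col10a1.

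Of the beaded filament chains, the 3 that build common type VI collagen rose after both beams. Col6a1 was at 150, 130, 145 and 133 CPM in Untreated bone, 251, 284, 219 and 283 after F-PRT, and 258, 238, 207 and 273 after S-PRT. The groups did not overlap, and the rise was 1.86-fold (log2 0.90 ± 0.11, adjusted p = 6.3e-05) and 1.75-fold (0.81 ± 0.11, adjusted p = 0.00017). Col6a2 rose 1.74-fold and 1.65-fold, also without overlap, and Col6a3 rose 1.60-fold and 1.61-fold with Untreated replicate 1 (235 CPM) inside the irradiated ranges. Col6a4, Col6a5 and Col6a6, the alternatives to the Col6a3 chain, did not pass.

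The major fibril chains rose by less and with more spread. Col1a1 was at 19397, 12941, 13405 and 10973 CPM in Untreated bone, 22836, 28488, 14362 and 27020 after F-PRT, and 24794, 27803, 24086 and 26560 after S-PRT. Untreated replicate 1 lay above F-PRT replicate 3, so the F-PRT and Untreated ranges overlapped while the S-PRT and Untreated ranges did not. The rise was 1.63-fold after F-PRT (log2 0.71 ± 0.24, adjusted p = 0.036) and 1.82-fold after S-PRT (0.86 ± 0.24, adjusted p = 0.016). Col1a2, at 8066, 5447, 5788 and 4390 CPM, then 9513, 12087, 6084 and 10889, and 9227, 11201, 9835 and 10785, had the same pattern of overlap. It rose 1.63-fold (adjusted p = 0.031) and 1.73-fold (adjusted p = 0.019).

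Type V, which sets fibril diameter, rose in 2 of its 3 chains. Col5a1 was at 305, 184, 198 and 172 CPM in Untreated bone, 343, 366, 232 and 356 after F-PRT, and 316, 376, 309 and 354 after S-PRT. It rose 1.51-fold (adjusted p = 0.024) and 1.58-fold (adjusted p = 0.017), with overlap after F-PRT only through F-PRT replicate 3 and Untreated replicate 1. Col5a2 rose 1.48-fold (adjusted p = 0.040) and 1.55-fold (adjusted p = 0.027). Col5a3 did not pass, with log2 differences of 0.11 ± 0.12 and -0.21 ± 0.12. Col3a1, the elastic fibril partner of type I, was at 602, 158, 307 and 226 CPM in Untreated bone, 430, 370, 395 and 347 after F-PRT, and 332, 447, 375 and 351 after S-PRT. Untreated replicate 1 was the highest of the 12, and the log2 differences of 0.26 ± 0.30 and 0.22 ± 0.30 did not pass.

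Among the FACIT chains only Col12a1, found on fibrils of tendon, periosteum and loaded bone, passed. It was at 520, 175, 278 and 238 CPM in Untreated bone, 549, 569, 425 and 532 after F-PRT, and 501, 626, 559 and 589 after S-PRT. It rose 1.71-fold (adjusted p = 0.031) and 1.88-fold (adjusted p = 0.017), with Untreated replicate 1 inside both irradiated ranges. Col14a1, of tendon and dermal fibrils, was at 25.1, 17.5, 23.1 and 20.1 CPM, then 24.9, 19.3, 24.5 and 24.1, and 24.6, 19.2, 21.4 and 20.2. Its 3 groups overlapped almost entirely, and its log2 difference after F-PRT was 0.12 ± 0.13. The transmembrane Col23a1 rose 1.88-fold after F-PRT (adjusted p = 0.0050), from 2.40 to 4.77 CPM to 5.53 to 7.49. After S-PRT its log2 difference of 0.59 did not pass (adjusted p = 0.053).

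**Figure D3:**
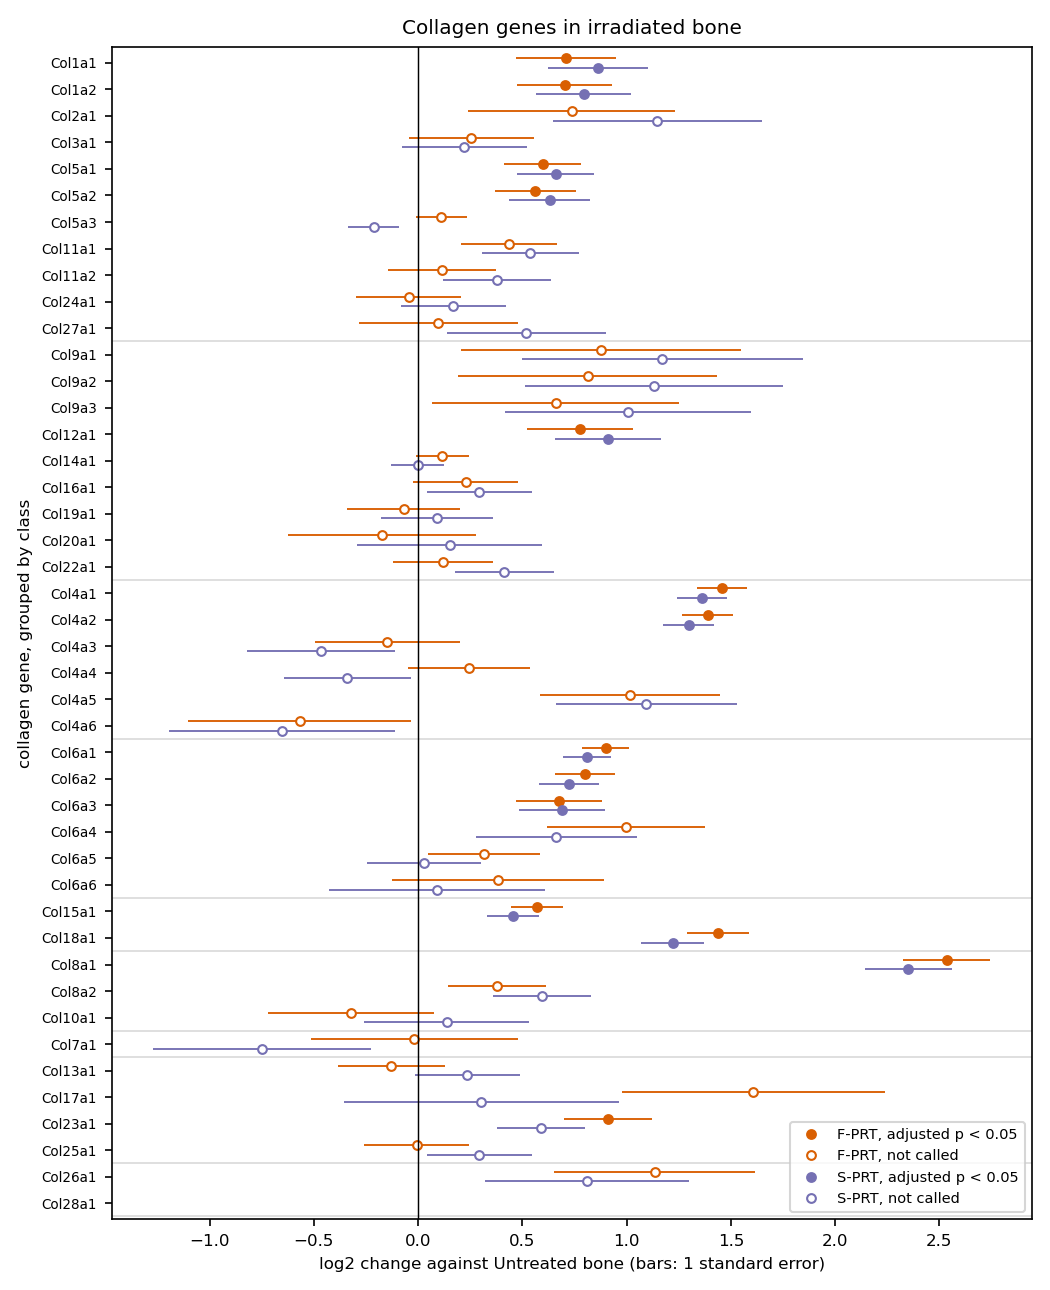
Points give the log2 difference from Untreated bone of each collagen (rows, by class) after F-PRT and S-PRT, with bars of 1 standard error and filled points for an adjusted p under 0.05. All filled points lie to the right of 0, and Col8a1 lies farthest right.

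The cartilage collagens Col2a1, Col9a1 and Col10a1 varied widely between libraries of a group, and none of the 3 passed with all 12 bone libraries. Col2a1 was at 834, 289, 307 and 236 CPM in Untreated bone, 736, 852, 134 and 1052 after F-PRT, and 917, 892, 826 and 1053 after S-PRT. F-PRT replicate 3 was the lowest of the 12 and Untreated replicate 1 lay among the irradiated libraries. The log2 differences were 0.74 ± 0.50 (adjusted p = 0.28) and 1.15 ± 0.50 (adjusted p = 0.11). Col9a1, of the FACIT trimer on type II fibrils, was at 47.5, 9.76, 16.0 and 8.24 CPM, then 35.9, 45.8, 2.56 and 62.5, and 39.6, 41.5, 41.0 and 57.5. It shows the same 2 libraries out of place. Col10a1, of hypertrophic cartilage, was at 79.6, 76.7, 155 and 70.1 CPM, then 80.2, 127, 25.1 and 73.5, and 71.0, 90.2, 101 and 158, with log2 differences of -0.32 ± 0.40 and 0.14 ± 0.40.

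The same libraries set how many collagens passed in bone. Without Untreated replicate 1, 19 collagens rose after F-PRT, where 18.5% of all genes rose, and 27 after S-PRT, where 16.9% did. Without F-PRT replicate 3 the counts were 16 (13.8% of all genes) and 14 (13%). These libraries were set apart by values of these same data, marker sums among them. Untreated replicate 1 had the highest chondrocyte sum of its group and F-PRT replicate 3 the lowest of its group. Leaving them out therefore favors a rise of cartilage collagens by how they were picked. Without Untreated replicate 1, F-PRT replicate 3 and F-PRT replicate 2, 25 rose after F-PRT, where 12.4% of all genes rose, and 28 after S-PRT, where 14.8% did. Those 25 included Col2a1 (log2 1.69), Col9a1 (2.12), Col9a2 (2.01), Col9a3 (1.93) and Col3a1 (0.76). In the other direction, the F-PRT count was 8 without F-PRT replicate 4 (12.2% of all genes rose), without Untreated replicate 2 (11.6%) or without Untreated replicate 4 (13.4%), and 9 without F-PRT replicate 2 (12.3%) or without Untreated replicate 3 (13.2%). Col4a1, Col4a2, Col6a1, Col6a2, Col8a1, Col15a1, Col18a1 and Col23a1 kept their F-PRT call in all 12 such omissions. Col6a3 kept its call in 8 of 12, Col1a1, Col1a2, Col5a1 and Col12a1 in 6, and Col5a2 in 5. After S-PRT, Col5a1 kept its call in 11 of 12, Col1a2 in 10, and Col5a2 and Col6a3 in 7, and the other 9 called collagens in all 12. The chondrocyte marker sum, which holds no collagen, was 419 to 1201 CPM in Untreated bone, 482 to 1330 after F-PRT and 1039 to 1465 after S-PRT. Its part in the spread of the cartilage collagens was not tested.

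The epidermal collagens were low in bone. Col7a1 was at 1.30, 0.53, 0.67 and 0.60 CPM in Untreated bone, 0.65, 0.41, 0.79 and 1.12 after F-PRT, and 0.11, 0.83, 0.30 and 0.57 after S-PRT. Col17a1 was at 1.84, 1.68, 1.13 and 1.00 CPM, then 0.76, 10.6, 2.31 and 3.30, and 1.60, 1.66, 0.78 and 2.84. F-PRT replicate 2, with 10.6 CPM, is the library with the highest differentiating keratinocyte sum in bone. Neither gene passed in either comparison.

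Without overlap between groups, 9 of the 43 tested collagens lay wholly above Untreated bone after F-PRT, where 15% of all tested genes did, and 9 after S-PRT, where 12.1% did. The F-PRT members were Col4a1, Col4a2, Col6a1, Col6a2, Col6a4, Col8a1, Col15a1, Col18a1 and Col23a1. The S-PRT members were Col1a1, Col1a2, Col4a1, Col4a2, Col5a1, Col6a1, Col6a2, Col8a1 and Col18a1. Wholly below lay 0 after F-PRT (17% of all genes) and 1, Col5a3, after S-PRT (14.4%).

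As a share of all TPM, collagen transcripts made up 0.262% (range 0.227% to 0.303%) in Untreated bone, 0.710% (0.467% to 0.874%) after F-PRT and 0.739% (0.676% to 0.801%) after S-PRT. As a share of expected counts the means were 2.13%, 3.99% and 4.36%. On the TPM scale Col1a1 was 2.76-fold higher after F-PRT and 2.93-fold higher after S-PRT, more than the 1.63-fold and 1.82-fold of the count model. On that scale the median of all tested genes in bone was itself shifted by log2 0.67 and 0.60. The non-coding RNAs 7SK and 7SL took 28.9% to 43.1% of TPM in Untreated bone, 22.7% to 28.0% after F-PRT and 26.3% to 28.5% after S-PRT. Marrow also differed, with a granulocyte and red cell marker sum of 6253 to 13163 CPM in Untreated bone, 2052 to 3177 after F-PRT and 1841 to 3234 after S-PRT. Osteoblast and osteocyte markers summed to 1180 to 1591, 1435 to 2649 and 2230 to 2448 CPM, and fibroblast markers to 688 to 1067, 1119 to 1267 and 1034 to 1200. Adipocyte markers summed to 150 to 242 CPM in Untreated bone, 336 to 479 after F-PRT and 305 to 488 after S-PRT, and osteoclast markers to 1631 to 2182, 1531 to 3791 and 2567 to 3473. The part of these shifts in the collagen rises was not tested.

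No collagen passed the test between the 2 beams in bone. Of 43 tested, 0 passed edgeR's test of F-PRT against S-PRT, where 0.00531% of all genes (1 gene) did, and DESeq2 and limma voom also called 0. At an unadjusted p under 0.05 there was 1, where 3.36% of all genes had such a p. It was Col5a3, at 28.9, 26.1, 26.8 and 35.1 CPM after F-PRT and 24.4, 23.8, 21.3 and 23.8 after S-PRT. Its groups did not overlap (F-PRT lay wholly above in 1.81% of all genes and wholly below in 1.04%), and its log2 difference was 0.33 with a 95% interval of 0.06 to 0.59. The other smallest p values belonged to Col17a1 (log2 1.30), Col4a4 (0.58), Col23a1 (0.32) and Col18a1 (0.22, interval -0.09 to 0.52). For Col17a1, F-PRT replicate 2 lay above every other bone library, at the level given above. That library also had the highest differentiating keratinocyte sum in bone (153 CPM). The Col17a1 difference without it is not given here. For Col8a1 the difference was 0.18 (interval -0.24 to 0.61), for Col4a1 0.10 (-0.15 to 0.35) and for Col1a1 -0.16 (-0.67 to 0.36). These intervals bound the difference and do not show that the beams act alike.

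Genes that make and mature collagen also rose in bone. Of 23 genes that modify and fold collagen chains, 14 rose and 0 fell after F-PRT, and 14 rose and 0 fell after S-PRT, where 15.5% and 13.3% of all genes rose and 17.2% and 15.2% fell, with medians of log2 0.57 and 0.62. Among them were P4ha1 (0.71 and 0.62) and P4ha3 (1.15 and 1.37), subunits of prolyl hydroxylase, Plod1 (0.74 and 0.64), a lysyl hydroxylase, and Crtap (0.93 and 0.94), which helps hydroxylate a single proline of type I. Of 13 genes that trim propeptides or cross-link fibrils, 7 rose after F-PRT and 8 after S-PRT, and 0 fell, beside the same shares of all genes (medians 0.60 and 0.58). Adamts2, the amino-propeptide protease, had 97.6, 88.6, 96.2 and 86.3 CPM in Untreated bone and 162 to 227 in the irradiated libraries, a log2 difference of 1.09 and 1.05. Tll2 (2.30 and 2.20), Pcolce (0.80 and 0.80) and the oxidase Loxl3 (0.97 and 0.97) also rose.

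Of 16 genes of collagen breakdown and its inhibitors, 9 rose and 1 fell after F-PRT, and 10 rose and 1 fell after S-PRT (medians 0.65 and 0.62), where 15.5% and 13.3% of all genes rose and 17.2% and 15.2% fell. Mmp2, a gelatinase, rose by log2 1.60 and 1.64. Mmp8, the collagenase stored in neutrophils, fell by 4.89 and 4.97 on the log2 scale, beside the lower granulocyte sum given above. The inhibitor Timp2 rose (0.60 and 0.53), as did the protease Ctsl (0.66 and 0.46). Of 10 collagen receptors, 5 rose and 2 fell after each beam (medians 0.27 and 0.34), and the 2 that fell are a share near that of all genes. Ddr1, a collagen-sensing kinase, rose by log2 1.12 and 1.09, and the integrin chain Itga1 by 0.70 and 0.58. Gp6, the platelet collagen receptor, fell by 2.96 and 3.10 on the log2 scale and Adgrg1 by 0.70 and 0.62.

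In skin the collagen differences after either beam were few. Col2a1 kept its call whichever library was left out, while the number of other collagens that passed moved with single libraries. After F-PRT 1 of 38 tested collagens rose and 0 fell, where 1% of all 19038 genes rose and 1.39% fell. After S-PRT 2 rose and 0 fell, where 1.83% of all genes rose and 2.52% fell. The median log2 difference of the collagens was 0.30 and 0.50, and that of all genes -0.02 and 0.00. Collagen transcripts made up 0.0574% of all TPM in Untreated skin (range 0.0393% to 0.0942%), 0.0944% after F-PRT (0.0878% to 0.109%) and 0.105% after S-PRT (0.0641% to 0.135%), and fibrillar chains took 44.5%, 58.5% and 46.9% of collagen TPM. Without S-PRT replicate 4 the S-PRT means were 0.119% and 60.5%. As a share of expected counts collagens took 0.382%, 0.557% and 0.604% (group means), and 0.625% after S-PRT without replicate 4. The RNAs 7SK and 7SL took 37.2% to 51.7% of TPM in Untreated skin, 41.0% to 49.5% after F-PRT and 29.5% to 49.2% after S-PRT. Col6a4, Col9a1, Col9a2, Col19a1, Col25a1 and Col26a1 were too low in skin to be tested.

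Col2a1, the cartilage fibril chain, passed after both beams at a very low level. It had 4, 1, 2 and 4 expected counts in the 4 Untreated skin libraries, 25, 11, 29 and 44 after F-PRT, and 25, 25, 27 and 41 after S-PRT. In CPM this is 0.05 to 0.24 in Untreated skin, 0.63 to 2.00 after F-PRT and 1.12 to 2.40 after S-PRT. Every irradiated library lay above every Untreated one. The rise was 8.30-fold after F-PRT (log2 3.05 ± 0.49, adjusted p = 0.0059) and 9.33-fold after S-PRT (3.22 ± 0.49, adjusted p = 0.0026), and it passed in all 12 omissions of a single library. In TPM the groups overlapped, because Untreated replicate 1 was listed at 0.26 TPM, inside the 0.10 to 0.29 of F-PRT. The chondrocyte marker sum was 108 to 125 CPM after F-PRT, 119 to 197 after S-PRT and 102 to 143 in Untreated skin, and its part in this rise was not tested.

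Col12a1, also found in dermis, rose 1.60-fold after S-PRT (log2 0.68 ± 0.17, adjusted p = 0.039). It was at 66.4, 70.7, 58.7 and 59.5 CPM in Untreated skin, 72.0, 74.2, 65.4 and 79.8 after F-PRT, and 92.2, 83.8, 86.1 and 147 after S-PRT. All S-PRT libraries lay above all others, with replicate 4 highest. The call was lost in 8 of 12 omissions of a single library (any F-PRT library, S-PRT replicate 1, or Untreated replicate 2, 3 or 4), at adjusted p of up to 0.101. Next by p after S-PRT were Col22a1 (log2 3.73, adjusted p = 0.054), Col16a1 (0.63, 0.063) and Col9a3 (1.21, 0.080). After F-PRT they were Col9a3 (1.03, adjusted p = 0.19), Col13a1 (1.17, 0.19), Col16a1 (0.47, 0.23) and Col8a2 (-0.36, 0.36).

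The dermal fibril chains were spread widely. Col1a1 was at 745, 615, 232 and 321 CPM in Untreated skin, 803, 816, 872 and 966 after F-PRT, and 1148, 1367, 972 and 72.6 after S-PRT. Col1a2 was at 444, 316, 127 and 199.5 CPM, then 441, 481, 534 and 519.5, and 561, 692, 529.6 and 35.2. Col3a1 was at 842, 730.4, 312 and 585 CPM, then 1016, 1008, 1203 and 1146, and 959, 1416, 1207 and 92.8. For Col1a1 and Col3a1 all F-PRT libraries lay above all Untreated ones, while S-PRT replicate 4 lay below every other skin library in all 3 genes. Col1a1 had log2 differences of 0.85 ± 0.61 (adjusted p = 0.57) and 0.90 ± 0.61 (adjusted p = 0.51), and Col3a1 of 0.82 ± 0.56 and 0.57 ± 0.56.

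Col5a1 was at 84.2, 75.8, 39.1 and 55.0 CPM in Untreated skin, 105, 102, 102 and 138 after F-PRT, and 128, 157, 118.5 and 19.6 after S-PRT. The FACIT chain Col14a1 was at 54.5, 53.5, 20.7 and 56.2 CPM, then 54.1, 74.2, 63.9 and 60.5, and 86.5, 88.0, 88.8 and 13.3. Col6a1 was at 162, 124, 79.2 and 98.2 CPM, then 154, 145, 168 and 169, and 183, 218, 174 and 98.5. In these dermal genes the first 3 S-PRT libraries were at or near the top and replicate 4 at or near the bottom. Col4a1 and Col4a2, of basement membranes, and Col15a1, of vessels, were also lowest in replicate 4 of all 12 skin libraries. Col4a1 was at 153, 151, 110.1 and 95.9 CPM, then 153, 141, 147 and 197, and 184, 191, 119 and 77.0. Col4a2 was at 93.9, 89.7, 63.4 and 65.1 CPM, then 99.9, 78.8, 96.1 and 129, and 114, 112, 77.3 and 46.4. Col15a1 was at 44.3, 41.9, 22.3 and 24.02 CPM, then 37.3, 39.8, 38.0 and 55.1, and 49.4, 60.1, 37.3 and 16.4. None of these 6 genes passed in either comparison with all 12 skin libraries.

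**Figure D4:**
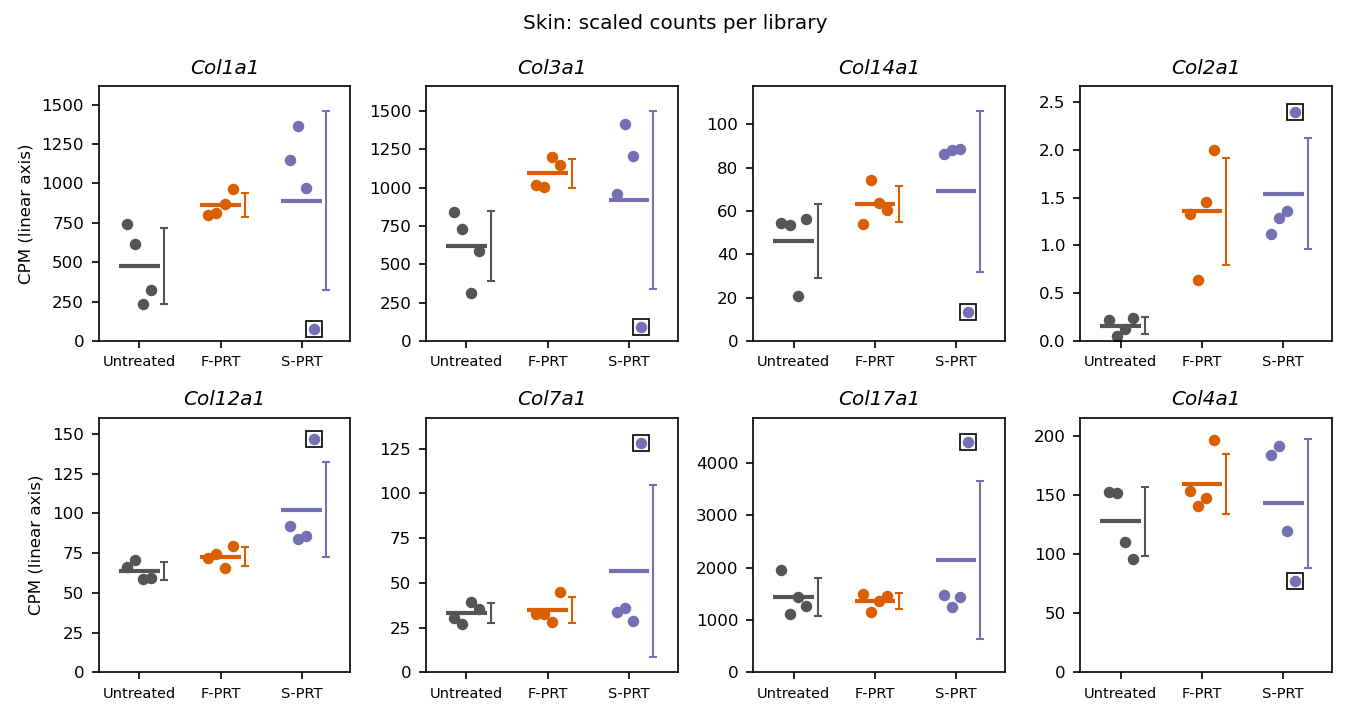
Points give CPM in each skin library on a linear axis from 0 for 8 collagens, with the group mean (line) and SD (bar) and a square around S-PRT replicate 4. The square lies at the bottom for Col1a1, Col3a1 and Col14a1 and at the top for Col12a1, Col7a1 and Col17a1.

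The epidermal collagens ran the other way in S-PRT replicate 4. Col17a1 was at 1959.6, 1112, 1432 and 1272 CPM in Untreated skin, 1492, 1149.8, 1367 and 1469 after F-PRT, and 1484, 1251, 1449.6 and 4404 after S-PRT. Col7a1 was at 30.5, 27.2, 39.5 and 35.5 CPM, then 32.9, 32.5, 28.4 and 45.2, and 33.5, 35.9, 28.6 and 128. Col18a1 was at 168, 104, 123 and 92.0 CPM, then 149, 125, 151 and 167, and 174, 158, 149.8 and 356. In all 3, replicate 4 was the highest skin library and the remaining 11 overlapped across groups. The low network chains Col8a1 and Col10a1 had no such library. Col8a1 was at 2.44, 3.45, 2.84 and 3.47 CPM, then 2.02, 2.07, 2.91 and 2.55, and 4.11, 4.31, 3.28 and 3.87. Col10a1 was at 1.79, 7.51, 9.74 and 6.75 CPM, then 6.71, 6.56, 4.77 and 5.18, and 4.87, 6.0, 5.25 and 4.92.

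Of the 36 collagens with a mean of at least 1 CPM in the other 3 skin S-PRT libraries, replicate 4 lay below all 3 in 22, above all 3 in 11 and between them in 3. Against all 11 other skin libraries it was lowest in 16 and highest in 10. The other 3 libraries averaged 16.0 times its level for Col1a1, 16.9 times for Col1a2, 12.9 times for Col3a1, 6.87 times for Col5a1, 6.60 times for Col14a1 and 5.32 times for Col6a2. Its own level was 3.92 times their mean for Col7a1, 3.16 times for Col17a1, 2.77 times for Col23a1, 2.21 times for Col18a1 and 2.19 times for Col4a6. Fibrillar chains took 6.11% of its collagen TPM and transmembrane chains 73.4%, against Untreated means of 44.5% and 31.9%. Its fibroblast, endothelial and basal keratinocyte sums, given above, moved with these genes, and their part was not tested.

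**Figure D5:**
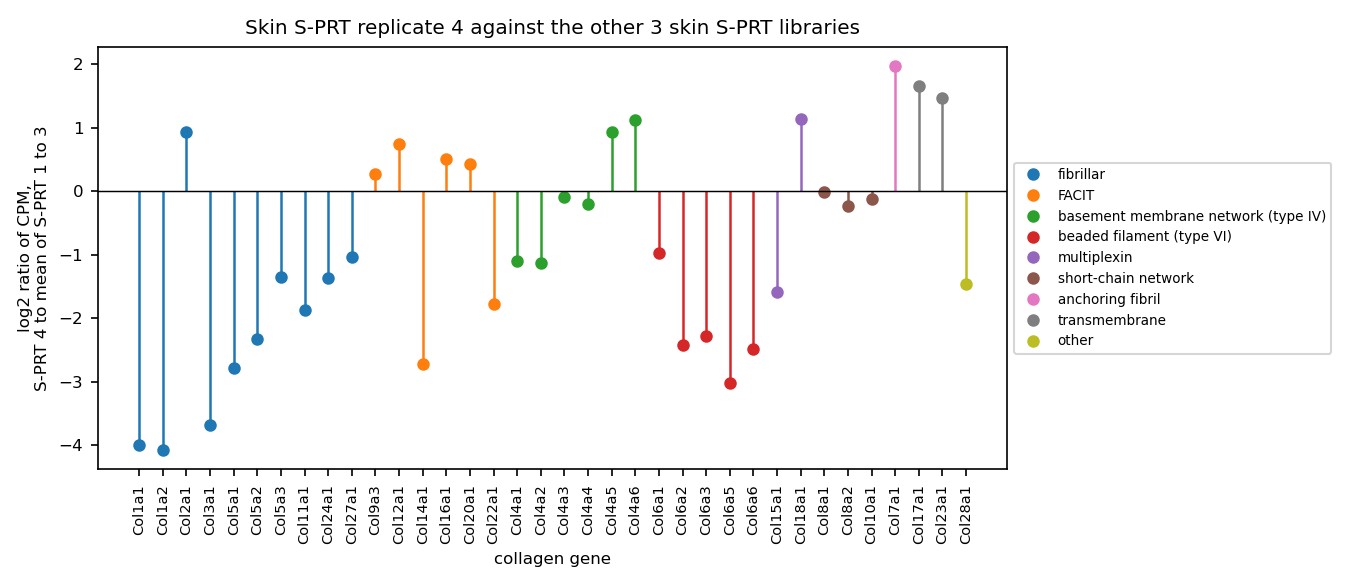
Points give the log2 ratio of the CPM of skin S-PRT replicate 4 to the mean of S-PRT replicates 1 to 3, for 36 collagens colored by class. Most fibrillar points lie below 0, and Col7a1, Col17a1, Col23a1 and Col18a1 lie above it.

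Without skin S-PRT replicate 4, 39 collagens could be tested. After S-PRT 10 rose and 0 fell, where 6.47% of all genes rose and 5.23% fell. They were Col2a1 (log2 2.94, adjusted p = 0.0029), Col5a1 (1.09, 0.010), Col12a1 (0.46, 0.014), Col22a1 (4.01, 0.020), Col5a2 (0.77, 0.022), Col1a1 (1.29, 0.024), Col6a1 (0.74, 0.033), Col3a1 (0.96, 0.037), Col1a2 (1.14, 0.038) and Col14a1 (0.93, 0.040). After F-PRT 3 rose, Col2a1 (3.06), Col5a1 (0.81, adjusted p = 0.038) and Col5a2 (0.64, adjusted p = 0.046), and 0 fell, where 3.77% of all genes rose and 3.84% fell. Leaving out Untreated replicate 1 alone gave 2 after F-PRT (1.3% of all genes rose) and 4 after S-PRT (3.3%). Leaving out S-PRT replicate 1 alone gave 1 (0.851%) and 1 (1.2%). Leaving out S-PRT replicate 4 and Untreated replicate 1 together gave 10 (8.2% of all genes rose) and 14 (13%). Both libraries were set apart by marker sums of these same data. S-PRT replicate 4 had the lowest fibroblast sum in skin and Untreated replicate 1 the highest of its group. Leaving out both therefore favors a rise of dermal collagens by how they were picked. Beside this, the fibroblast sum was 1152 to 1800 CPM after F-PRT, 1387 to 1953 in the first 3 S-PRT libraries and 282 to 1305 in Untreated skin. The endothelial sum was 186 to 209, 188 to 203 and 56.9 to 156. Their part in the collagen values was not tested.

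Wholly above Untreated skin with no overlap lay 6 of the 38 tested collagens after F-PRT (Col1a1, Col2a1, Col3a1, Col4a5, Col5a1 and Col5a2), where 8.02% of all tested genes did. After S-PRT these were Col2a1, Col4a5, Col9a3, Col12a1, Col13a1 and Col22a1, also 6, where 3.81% did. Wholly below lay 0 after F-PRT (8.14% of all genes) and 0 after S-PRT (5.37%). Col22a1, a FACIT chain of tissue junctions, was at 0.05, 0.16, 0.00 and 0.00 CPM in Untreated skin and 1.83, 0.62, 0.56 and 0.29 after S-PRT. Its Untreated libraries held 1, 3, 0 and 0 expected counts. Its highest level was in S-PRT replicate 1, and without that library its log2 difference after S-PRT was 2.97 (adjusted p = 0.16) in place of 3.73. The skeletal muscle marker sum was 12581, 2340, 347 and 444 CPM in the 4 S-PRT libraries, 253 to 4004 after F-PRT and 5.59 to 3069 in Untreated skin, and its part in the Col22a1 values was not tested.

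Between the beams in skin, 0 of 38 collagens passed edgeR's test of F-PRT against S-PRT, as did 0% of all genes, and DESeq2 and limma voom called 0. At an unadjusted p under 0.05 there were 4, where 2.74% of all genes had such a p, and all 4 were lower after F-PRT. They were Col8a1 (log2 -0.70, 95% interval -1.15 to -0.25), Col12a1 (-0.49, interval -0.85 to -0.13), Col4a6 (-0.66) and Col22a1 (-1.77). Col8a1 and Col12a1 did not overlap between the beams, where 1.31% of all genes lay wholly below and 1.37% wholly above. For Col1a1 the difference of -0.04 had an interval of -1.37 to 1.28, and for Col17a1 that of -0.65 had one of -1.43 to 0.13, which are wide. Without S-PRT replicate 4 the differences were -0.71 for Col8a1, -0.27 for Col12a1, -0.29 for Col4a6 (unadjusted p = 0.19 by edgeR), -2.04 for Col22a1, -0.44 for Col1a1 and -0.03 for Col17a1, so those of Col12a1, Col4a6, Col1a1 and Col17a1 moved with that library. Without S-PRT replicate 1 the difference of Col22a1 was -1.004 (unadjusted p = 0.23).

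Of the genes that act on collagen, few passed in skin, where 1% of all genes rose and 1.39% fell after F-PRT and 1.83% rose and 2.52% fell after S-PRT. Plod2, the lysyl hydroxylase of cross-link sites, rose after both beams. It was at 4.24, 6.58, 6.05 and 3.28 CPM in Untreated skin, 15.6, 13.5, 19.6 and 15.8 after F-PRT, and 16.3, 17.6, 15.3 and 22.9 after S-PRT. No irradiated library overlapped an Untreated one, and the log2 difference was 1.68 after F-PRT (adjusted p = 0.0018) and 1.84 after S-PRT. It was the only 1 of 23 modification genes to pass. Of 12 tested propeptide and cross-linking genes 0 passed after either beam, with 1 and 2 at an unadjusted p under 0.05. Of 9 tested receptors 0 passed, with 2 and 2 at that unadjusted p. By edgeR 14.9% of all genes had such a p after F-PRT and 16.8% after S-PRT. Of 15 tested breakdown genes, Timp3 rose after both (0.56 and 0.88) and Mmp13, an interstitial collagenase, fell after F-PRT by 2.77 on the log2 scale. Without S-PRT replicate 4, 6 of the 12 propeptide and cross-linking genes rose after S-PRT, where 6.47% of all genes rose, and 2 after F-PRT, where 3.77% did.

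The tissues were then compared directly, by testing whether the difference from Untreated was itself different in skin and bone. After F-PRT 4 of 44 collagens differed, where 10.7% of all 20754 genes did, and all 4 were lower in skin. They were Col8a1 (log2 -2.91 ± 0.28, adjusted p = 6.5e-07), Col4a1 (-1.16, 0.017), Col18a1 (-1.18, 0.020) and Col4a2 (-1.04, 0.033). After S-PRT 4 differed, where 9.45% did. Col8a1 (-2.02 ± 0.27, adjusted p = 4.3e-05), Col4a1 (-1.21, 0.013) and Col4a2 (-1.15, 0.020) were lower in skin, and Col22a1 was higher (3.31 ± 0.95, adjusted p = 0.029). Without skin S-PRT replicate 4 the counts were 5 (14.3% of all genes) and 5 (12.5%). In each of these cases the collagens that differed are a share near that of all genes. Col8a1 and Col4a1 passed in all 24 omissions of a library after both beams, Col4a2 in 15 of 24 after F-PRT, Col18a1 in 23 and Col22a1 in 20. The Col22a1 call was lost without skin S-PRT replicate 1 (log2 2.51, adjusted p = 0.097), without skin Untreated replicate 1, 3 or 4, and with voom (adjusted p = 0.159). For the type I chains the tissue difference was not called after either beam.

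Ratios between chains that can share a trimer were steady for some pairs and not for others. On TPM, Col1a1 to Col1a2 was 1.87, 1.94 and 2.03 in Untreated, F-PRT and S-PRT bone, and 1.38, 1.38 and 1.54 in skin, given as group means. Col4a1 to Col4a2 lay between 2.31 and 2.65 in all 6 groups. Col6a1 to Col6a2 lay between 1.25 and 1.48 in 5 groups and was 2.01 in skin S-PRT, where replicate 4 stood at 3.8. Col5a1 to Col5a2 was 0.765, 0.815 and 0.792 in bone and 0.873, 1.078 and 1.063 in skin. Col4a5 to Col4a6, both low in bone, moved most, at 0.979, 4.49 and 2.67 there, with single libraries from 0.222 to 10, and was 1.16, 1.62 and 1.33 in skin. Col3a1 to Col1a1, a pair of different collagen types (III and I) and not of a shared trimer, separated the tissues. It was 3.01, 3.06 and 2.65 in skin and 0.0467, 0.0431 and 0.0336 in bone. No test was made of these ratios. Across the 12 bone libraries the collagens whose log2(CPM + 1) deviated most alike from their group means included, as a description over libraries that share groups, Col9a1 and Col9a2 (Pearson's r 0.993), Col2a1 and Col9a1 (0.992), Col1a1 and Col1a2 (0.989) and Col6a1 and Col6a2 (0.938). For Col2a1 and Col9a1, F-PRT replicate 3 and Untreated replicate 1 lay far from the rest of their groups. These libraries weigh on the r of the cartilage pairs, which is not given without them.

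Several collagens are neighbours in the genome (GRCm38, GENCODE M21). Besides the overlapping Col4a1 and Col4a2, Col4a4 and Col4a3 lie head to head on chromosome 1 with a gap of 71 bases, and Col4a6 and Col4a5 on chromosome X with a gap of 1308 bases. Of these 3 pairs only the first was called in bone. Col3a1 and Col5a2 are separated by 24.6 kb on chromosome 1, and in bone Col5a2 rose while Col3a1 did not pass. Col6a2 and Col6a1, both called in bone, are separated by 85.2 kb on chromosome 10.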

How the data were processed

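The authors deposited RSEM gene tables for 24 libraries, 4 in each of 6 groups, and the groups come from the labels. FastQC, cutadapt, STAR and RSEM on GRCm38 are listed, without versions or settings, in the submitters' processing notes. The annotation release and the strand setting are likewise not given in the sources used. Deposited expected counts were rounded and tested. Deposited TPM values were used as given, for levels between genes only. Deposited FPKM values were not used.

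Of 55471 gene identifiers, 55230 (99.57%) matched GENCODE M21, which gave symbols and biotypes. Counts were scaled with TMM, filtered with filterByExpr and tested with edgeR 4.0.16 (R 4.3.3) by its quasi-likelihood F test, with Benjamini-Hochberg adjustment over all genes tested and a threshold of 0.05. Each tissue was fitted on its 12 libraries, and effects were compared between tissues, and Untreated skin with Untreated bone, in a fit of all 24. CPM are counts divided by the TMM-scaled library size and multiplied by 1000000, marker sums are sums of CPM, and ± after a log2 difference is 1 standard error. The fitting script was tested on simulated counts. P-values measure the spread between these libraries, whose separate animals are taken from the label "biological".

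Alternatives were DESeq2 1.42.0, limma 3.58.1 voom with sample quality weights, RLE size factors, no filter on low counts, the replicate number as a block, the 8 libraries compared alone, each library left out in turn, and the libraries that stand apart left out together. A shared replicate number was not taken as a pairing, since only 7 of 12 same-numbered pairs in skin and 3 of 12 in bone had a correlation of deviations over 0.1 and in no comparison within a tissue did all 4, so no block is in the reported fit. Between skin and bone of the same treatment 4 of 12 same-numbered pairs were over 0.1 (r -0.39 to 0.27). Whether such a pair came from 1 mouse is not stated, and the fit of all 24 libraries treats skin and bone libraries as separate. No 2 libraries of a group agreed within sampling noise.

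The text names every collagen past the test in the reported fit of a comparison and, within a tissue, the 5 of smallest p where fewer passed. A panel of 16 collagens is given with values in every library of each tissue, except Col15a1 in bone, given as group ranges. From each pathway list the text names up to 4 genes of smallest p after F-PRT. The panel is Col1a1, Col1a2, Col2a1, Col3a1, Col4a1, Col4a2, Col5a1, Col6a1, Col7a1, Col8a1, Col10a1, Col12a1, Col14a1, Col15a1, Col17a1 and Col18a1. That collagens were the genes to describe, and the lists beside them, was decided with earlier results of these data known, while the 44 members follow from their symbols alone. Promoter sequences are RefSeq's on GRCm38.p6. Intervals cover counting and library spread as modeled by edgeR at a confidence of 95%.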

Additional observations from a re-analysis of the deposited data

Results flagged for a closer look

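In each group of 4 libraries, the highest and lowest CPM of every collagen with at least 1 CPM was set against the others by Dixon's ratio at its 95% critical value. Of 246 groups over 41 collagens, 22 held a library past it, where chance gives about 1 in 20.

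Skin S-PRT replicate 4 accounted for 7 of them. It was above the others for the epidermal and junction genes Col17a1 (4404 CPM, others 1251 to 1484), Col7a1 (128.3, others 28.62 to 35.95), Col23a1 (161.2, others 50.92 to 63.64), Col18a1 (355.5, others 149.8 to 174.2) and Col4a5 (46.56, others 22.96 to 26.51), and for Col12a1 (146.8, others 83.8 to 92.24). It was below them for the dermal fibril gene Col14a1 (13.29, others 86.49 to 88.78).

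Bone Untreated replicate 1 accounted for 5, all high and 3 of them chains of cartilage. These were Col2a1 (834.5 CPM, others 236 to 307.2), Col9a3 (22.67, others 5.031 to 6.669), Col27a1 (87.54, others 25.66 to 35.21), Col25a1 (13.78, others 5.963 to 6.736) and Col5a3 (33.63, others 24.39 to 25.61). Its chondrocyte marker sum, given in the report, was also the highest of its group, and its part was not tested.

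The remaining 10 were scattered. In skin they were Col15a1 (55.14 CPM, others 37.27 to 39.77) and Col5a1 (138.0, others 102.0 to 104.8) in F-PRT replicate 4, Col14a1 (20.74, others 53.51 to 56.19) in Untreated replicate 3 and Col4a5 (13.27, others 19.99 to 20.68) in Untreated replicate 2. In bone they were Col14a1 (19.29, others 24.08 to 24.87) in F-PRT replicate 2, Col25a1 (5.599, others 8.585 to 9.083) and Col6a6 (1.886, others 0.8232 to 0.9954) in F-PRT replicate 3, Col11a2 (327.4, others 372.3 to 380.2) in S-PRT replicate 3, Col9a1 (57.52, others 39.6 to 41.52) in S-PRT replicate 4 and Col10a1 (155.3, others 70.15 to 79.62) in Untreated replicate 3.

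Collagens whose difference from Untreated differed between skin and bone by the interaction test were, after F-PRT, Col8a1 (log2 -2.906), Col18a1 (-1.184), Col4a1 (-1.161) and Col4a2 (-1.041), and after S-PRT Col8a1 (-2.016), Col4a1 (-1.214), Col4a2 (-1.147) and Col22a1 (3.311). As a share of the 44 collagens, these are near the 10.7% and 9.45% of all genes that differed after F-PRT and S-PRT.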

How the results depend on the processing

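No named log2 difference that passed reversed its sign under any alternative. Of 4270 values of named collagens under alternatives, 1647 that passed still passed, 83 no longer did, 85 newly passed and 2455 did not pass in either fit. Of the last kind 117 changed sign. The count of collagens called changed by more than 1.5 times as follows. In skin after F-PRT it went from 1 to 8 with voom and 10 without S-PRT replicate 4 and Untreated replicate 1 together. In skin after S-PRT it went from 2 to 14 with voom, 6 with DESeq2, 1 with the 8 libraries alone, 1 with the replicate block and 14 without the same 2 libraries. In bone it went from 14 to 25 after F-PRT without F-PRT replicates 2 and 3 and Untreated replicate 1 together, and from 13 to 28 after S-PRT without them or 23 with voom. The F-PRT effect in skin against bone went from 4 to 7 with voom. The cause was not tested. The libraries left out together were picked from these same data, in a way that favors a rise of dermal collagens in skin and cartilage collagens in bone. No share of all genes stands beside the counts with voom, DESeq2, the 8 libraries alone or the block. Those counts therefore do not separate collagens from all genes called under the same setting.

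With each library left out in turn, the collagens called ranged from 1 to 3 in skin after F-PRT, 1 to 10 in skin after S-PRT, 8 to 19 in bone after F-PRT, 9 to 27 in bone after S-PRT, 3 to 5 for the F-PRT effect and 3 to 5 for the S-PRT effect in skin against bone, 31 to 35 between the Untreated tissues and 0 to 0 between the beams in either tissue. The highest counts came without skin S-PRT replicate 4 or without bone Untreated replicate 1. The genes called of all tested ranged from 216 to 1477 in skin after F-PRT, 452 to 2270 in skin after S-PRT, 4803 to 6727 in bone after F-PRT, 4054 to 6158 in bone after S-PRT, 0 to 1 between the beams in either tissue, 1636 to 3021 and 1520 to 2633 for the F-PRT and S-PRT effects in skin against bone, and 13010 to 14150 between the Untreated tissues.

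With the replicate number as a block, the pairing gave 1 collagen in skin after F-PRT, 1 after S-PRT, 11 in bone after F-PRT and 13 after S-PRT. No share of all genes stands beside these counts either. Same-numbered libraries correlated at -0.39 to 0.48 in skin and -0.30 to 0.28 in bone, and 5 of 12 and 2 of 12 correlated best with their own number. RLE scaling moved the median of all genes by at most log2 0.0154. Depth limits Col2a1 and Col22a1 in skin, which rest on a few counts in Untreated libraries.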
